A study of Arabidopsis thaliana with 12 samples.

Results

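UDP-glycosyltransferases (UGTs) of Arabidopsis thaliana were followed in roots of wild-type (WT) plants and of hni9, a mutant of HNI9/IWS1, at 2 nitrogen supplies. The genes were picked by a rule on names, which was set with earlier results of these data known. Each gene needed a probe set of the Affymetrix array assigned to it alone. Its symbol or synonym had to have the form of a UGT family name, such as UGT71C1. UGT78D2, UGT84A1 and UGT91A1 were left out. The rule gave 49 genes from 12 numbered families on all 5 chromosomes, each with 1 probe set, out of 13356 genes with a probe set of their own and 22810 probe sets in all. Of the 64 genes with such a name in the gene table, 9 had no named probe set, among them UGT74E2, and were not analysed here. A further 3 probe sets shared between a UGT and another gene were not used. The set is not free of flavonoid enzymes, because UGT78D1, UGT78D3, UGT79B1 and UGT79B6 meet the rule.

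UGTs transfer a sugar, most often glucose from UDP-glucose, onto small molecules. The step makes hormones, phenolics, glucosinolate precursors, sterols and foreign compounds more soluble and usually less reactive, and the products are often stored in the vacuole. In plants the number names a sequence family and the letter a subfamily, and many of the genes lie in tandem. Of the 49 genes, 23 lay in 10 runs of direct neighbours, the longest being UGT85A7, UGT85A2, UGT85A5 and UGT85A3 on chromosome 1.

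The 12 arrays formed 4 groups of 3 biological replicates, WT and hni9 each held at steady state on 10 mM NH4NO3 (high nitrogen) or 0.3 mM KNO3 (low nitrogen). Form and amount of nitrogen therefore cannot be told apart. In the titles the first and second replicates of the mutant are written hni9-1 and hni9-2, and the third plain hni9. The labels state neither whether these are alleles nor what kind of mutation they carry. Values are the deposited intensities on a linear scale, with array medians of 199.8 to 222, and the number of arrays limits the precision. Changes are differences of log2(intensity + 16) ± standard error from limma, and a gene passed the test at an adjusted p under 0.05 over all 22746 probe sets tested. GAPDH read from its 3′ end over its 5′ end, a sign of RNA integrity, gave ratios of 1.31 to 1.35 for WT at high nitrogen and of 0.921 to 1.27 elsewhere. The 4 arrays of replicate 3 stood apart: their deviations from the group means correlated by 0.0989 to 0.150 with each other and by -0.119 to -0.0335 with those of replicates 1 and 2 in other groups. With replicates 1 and 2 alone, 19 of the 29 calls described here did not pass, in fits with fewer arrays. Of the root markers 2 of 17 were named on the array, the root hair genes EXPA7 and EXPA18, with intensities of 504 to 1064 and 459 to 1069. Averaged over the supplies, EXPA7 was higher in hni9 by 0.56 ± 0.08 (adjusted p = 0.000648) and EXPA18 lower, at -0.57 ± 0.09 (adjusted p = 0.00126), and their part in the differences between the genotypes was not tested. Of the markers of green tissue 1 of 12 was named, RCA, at 144 to 1180 with no difference between groups past the test. In whole roots, a loss of cells that express a gene and less of its RNA per cell cannot be told apart.

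Signals of 23 of the 49 genes were among the dimmest 40% of probe sets. For UGT71B6, UGT73C1, UGT73C2, UGT76E1, UGT76E12, UGT78D3, UGT79B6 and UGT84B1 at least 6 of 12 arrays read under 16, so a change in them would be compressed. The other 26 genes carried 28 of the 29 calls, spread over the 7 comparisons made, and UGT72B3 carried the remaining one. In all, 15 of the 49 genes passed in at least 1 comparison, or 30.6%, against 18.4% of all probe sets.

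In WT, 2 genes were higher and 1 lower at low nitrogen, 6.12% of the 49 against 5.74% of all probe sets (2.84% higher, 2.9% lower). In hni9, 3 were higher and 2 lower, 10.2% against 5.1% (2.98% higher, 2.12% lower). Between the genotypes at high nitrogen, 2 were higher and 6 lower in hni9, 16.3% against 7.67% (3.34% higher, 4.33% lower). At low nitrogen 1 was higher and 0 were lower, 2.04% against 2.06% (0.73% higher, 1.33% lower). At an unadjusted p under 0.05 that comparison had 9 of the 49, against 3041 of all 22746 probe sets. In the other comparisons that count was 12 to 18 of the 49, against 2475 to 5035 of all probe sets. The interaction, that is, how far the difference between hni9 and WT depends on supply (high less low), passed for 1 gene with a negative value, 2.04% against 0.703% (0.259% positive, 0.444% negative). Averaged over the genotypes, 4 genes were higher and 2 lower at low nitrogen, 12.2% against 8.95% (4.61% higher, 4.34% lower). Averaged over the supplies, 1 was higher and 4 lower in hni9, 10.2% against 9.41% (4.4% higher, 5.01% lower). The medians of the 49 changes lay between -0.07 and 0.13 in the 7 comparisons, and those of all probe sets between -0.05 and 0.03. The 34 genes with no call had changes of -1.20 to 0.96 in the 4 comparisons between 2 groups, and both ends belonged to the dim UGT85A3.

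**Figure D1:**
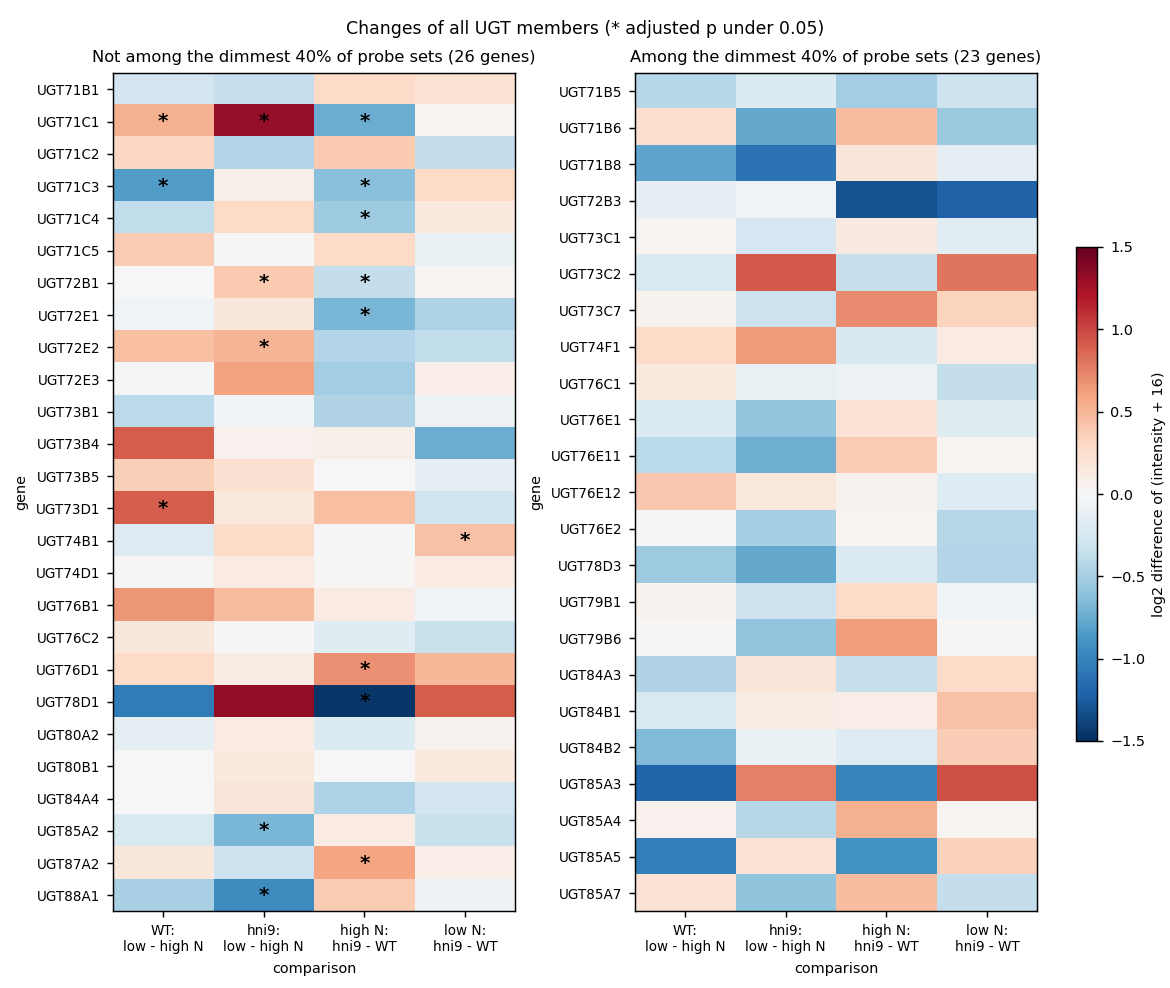
Change of each of the 49 UGT genes in the 4 comparisons between 2 groups. Rows are genes, columns are comparisons, colour is the difference of log2(intensity + 16) from -1.5 (blue) to 1.5 (red), and an asterisk marks an adjusted p under 0.05. The 26 brighter genes on the left hold every asterisk, with 8 of them in the comparison of the genotypes at high nitrogen and 1 at low nitrogen.

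The counts depended on single arrays. The 3 calls of WT became 6 without hni9 replicate 2 at high or at low nitrogen, since all groups share 1 estimate of the spread. The 5 calls of hni9 became 2 without hni9 replicate 2 at high or replicate 3 at low nitrogen, and 3 without hni9 replicate 1 or 2 at low nitrogen. The 8 calls at high nitrogen became 2 without replicate 3 of either genotype at that supply, 4 without WT replicate 2, and 5 without hni9 replicate 1 or 2.

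UGT71C1 (AT2G29750) stood out among the 49, with 6 of the 29 calls. Its product is known to glucosylate phenolics, among them lignans, hydroxycinnamates and dihydroxybenzoate. At high nitrogen its intensity was 889.7, 805 and 974 in WT and 489, 564 and 517 in hni9. At low nitrogen it was 1281, 1382 and 1209 in WT and 1396, 1304 and 1288 in hni9. The WT arrays at high nitrogen lay above every hni9 array of that supply, while the groups at low nitrogen overlapped.

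UGT71C1 rose at low nitrogen in both genotypes, by 0.53 ± 0.10 in WT (adjusted p = 0.00419) and by 1.32 ± 0.10 in hni9 (adjusted p = 3.93e-06). As ratios of mean intensities the rises were 1.45-fold and 2.54-fold. At high nitrogen the gene was lower in hni9, at -0.75 ± 0.10 (adjusted p = 0.00033). At low nitrogen the difference was 0.04 ± 0.10 (adjusted p = 0.912). The interaction was -0.79 ± 0.14 (adjusted p = 0.0161), the single one that passed among the 49. It had an adjusted p of 0.0503 without hni9 replicate 1, 0.0539 without WT replicate 1 and 0.0528 without WT replicate 3, all at low nitrogen. With a constant prior variance in place of the intensity trend it was 0.115, at the same size. The rises at low nitrogen and the difference at high nitrogen passed in all 12 fits that left out 1 array.

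Among the other UGT71C genes, UGT71C3 and UGT71C4 also passed as lower in hni9 at high nitrogen, and neither passed as higher at low nitrogen. UGT71C2 (AT2G29740), the direct neighbour of UGT71C1 on chromosome 2, passed in no comparison. Its intensities were 256, 237 and 196 in WT and 356, 386 and 205 in hni9 at high nitrogen, and the groups overlapped. UGT71C3, UGT71C4 and UGT71C5 are direct neighbours on chromosome 1.

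UGT71C3 (AT1G07260), known to glucosylate methyl salicylate, was highest in WT at high nitrogen. Its intensities there were 332, 513 and 497, against 217, 227 and 275 in WT at low nitrogen. In hni9 it read 289, 259.7 and 289.7 at high and 314, 331 and 251 at low nitrogen. Every WT array at high nitrogen lay above those of both WT at low nitrogen and hni9 at high nitrogen. It fell at low nitrogen in WT, with a change of -0.84 ± 0.18 (adjusted p = 0.0121), and was lower in hni9 at high nitrogen, at -0.63 ± 0.18 (adjusted p = 0.0485). In hni9 the nitrogen difference was 0.08 ± 0.18 (adjusted p = 0.898). The interaction had -0.92 ± 0.26 (adjusted p = 0.144). The WT call was lost on leaving out, in WT, replicate 2 (adjusted p = 0.0699) or 3 (0.0628) of high nitrogen or replicate 1 (0.0547) or 2 (0.0537) of low nitrogen. The hni9 call was the least stable of all. It passed in 3 of the 12 fits that left out 1 array and missed in the other 9. At high nitrogen these left out hni9 replicate 1 (0.0992), 2 (0.119) or 3 (0.0953) or WT replicate 2 (0.184) or 3 (0.17). At low nitrogen they left out hni9 replicate 1 (0.0599) or WT replicate 1 (0.0603), 2 (0.064) or 3 (0.0515). It also missed with arrays centred on their medians (0.0581).

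UGT71C4 (AT1G07250) read 1015, 1019 and 1061 in WT and 723, 823 and 598 in hni9 at high nitrogen, with no overlap. The change was -0.53 ± 0.12 (adjusted p = 0.0158), lost without replicate 3 of hni9 (0.0699) or of WT (0.0594) at that supply. At low nitrogen the values were 807, 690.1 and 898 in WT and 838, 943 and 854 in hni9, which overlap. The interaction of -0.67 ± 0.17 missed (adjusted p = 0.113) and passed without hni9 replicate 2 at high nitrogen (-0.78, adjusted p = 0.0417). That array was the highest of its group, so leaving it out could only enlarge the interaction and is no further support. UGT71C5 (AT1G07240), which glucosylates abscisic acid, read 436, 478 and 493 in WT at high and 617, 642 and 586 at low nitrogen. That difference of 0.38 ± 0.11 just missed (adjusted p = 0.0512). It passed with arrays centred on their medians (0.0329) and after quantile normalization (0.0445). In hni9 the nitrogen difference was -0.01 ± 0.11, and the interaction of 0.39 ± 0.15 missed (adjusted p = 0.34). Of the 5 UGT71C genes 3 were thus lower in hni9 at high nitrogen and 0 higher, while 2 had positive values, against 4.33% of all probe sets lower.

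**Figure D2:**
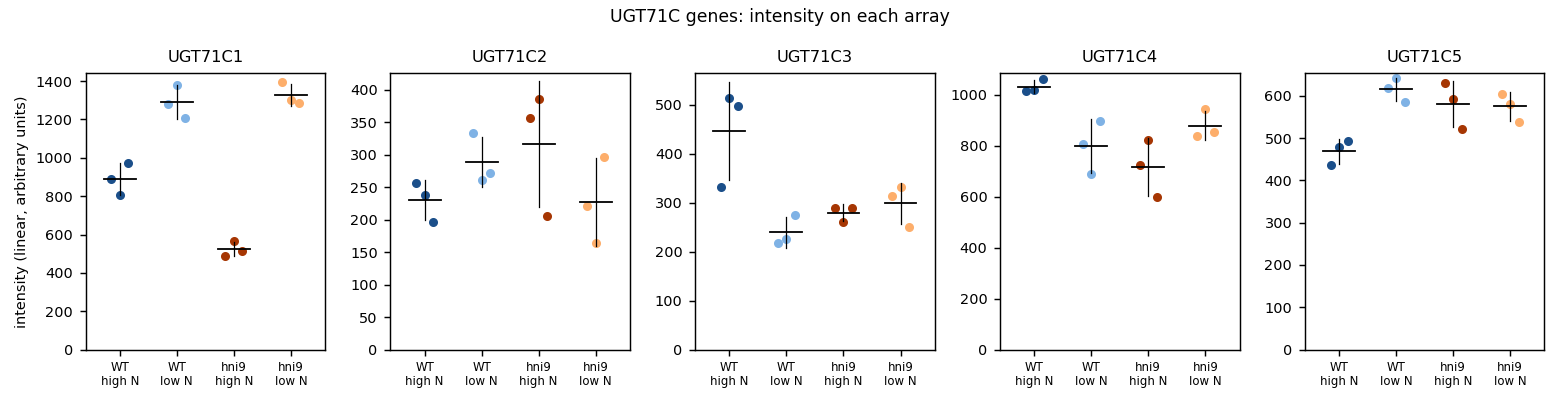
Intensity of the 5 UGT71C genes on each array, on a linear axis from 0, by group. Points are arrays, horizontal bars group means and vertical bars 1 SD (n = 3). UGT71C1 has its lowest values in hni9 at high nitrogen, 489 to 564, and UGT71C3 its highest in WT at high nitrogen.

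Genes that act on monolignols, the alcohols from which lignin is made, and on related phenylpropanoids formed the largest role list, with 8 measured of 12. At high nitrogen 2 of the 8 were lower in hni9 and 0 higher, against 4.33% lower and 3.34% higher over all probe sets. Averaged over both supplies 3 were lower and 0 higher, against 5.01% and 4.4%. The medians of the 8 changes were -0.45 and -0.29, and those of all probe sets 0.03 and 0.01. Between the genotypes at low nitrogen 0 of the 8 passed, against 0.73% higher and 1.33% lower over all probe sets. Their median there was -0.13, and that of all probe sets -0.002. The interaction passed for 0 of the 8, against 0.703% of all probe sets. UGT72E1 (AT3G50740), which acts on coniferyl and sinapyl aldehydes, was the clearest. At high nitrogen it read 1928, 2006 and 2042 in WT and 1317, 1232 and 1152 in hni9. At low nitrogen it read 1766, 1977 and 2025 in WT and 1225, 1735 and 1261 in hni9. All 6 WT arrays lay above all 6 hni9 arrays, as they did, in either direction, for 3.3% of all probe sets. The change was -0.69 ± 0.12 at high nitrogen (adjusted p = 0.00258) and -0.57 ± 0.08 averaged over the supplies (adjusted p = 0.00061), and both passed whichever array was left out. At low nitrogen alone it had -0.46 ± 0.12 (adjusted p = 0.0604). Without hni9 replicate 2, the one mutant array that read high, it had -0.62 (adjusted p = 0.0032). Leaving out that array could only enlarge the difference, so this is no further support.

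UGT72E2 (AT5G66690), which glucosylates coniferyl and sinapyl alcohols, differed by both nitrogen and genotype. It read 2718, 3147 and 3667 in WT at high nitrogen and 4210.5, 4383 and 4310.1 at low nitrogen. In hni9 it read 2599.6, 1827 and 2640.1 at high and 3304, 3553 and 3128 at low nitrogen. At each supply every hni9 array lay below every WT array, and in each genotype every array at low nitrogen lay above every one at high nitrogen. Averaged over the genotypes it rose by 0.48 ± 0.10 at low nitrogen (adjusted p = 0.00459), and averaged over the supplies it was lower in hni9, at -0.40 ± 0.10 (adjusted p = 0.0152). Its interaction was -0.07 ± 0.19 (adjusted p = 0.943). Both averages passed whichever array was left out. The rise within hni9 was 0.51 ± 0.13 (adjusted p = 0.0409), and that within WT was 0.45 ± 0.13 (adjusted p = 0.0726). The hni9 call held in 4 of the 12 fits with 1 array left out. Of the other 8 fits, those at high nitrogen left out replicate 2 of hni9 (adjusted p = 0.129) or of WT (0.0594). Those at low nitrogen left out any hni9 replicate (0.105, 0.107 and 0.0664) or any WT replicate (0.0593, 0.0606 and 0.06).

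UGT72E3 (AT5G26310), a further enzyme of monolignol glucosylation, passed in no comparison. It read 324, 297 and 263 in WT and 208, 155 and 245 in hni9 at high nitrogen, with no overlap, and the change was -0.52 ± 0.18 (adjusted p = 0.107). The 3 UGT72E genes therefore had the same sign at high nitrogen, and 1 passed. At low nitrogen the genotype difference of UGT72E3 was 0.10 ± 0.18 (adjusted p = 0.884), while those of UGT72E1 and UGT72E2 were negative. Within hni9 UGT72E3 was higher at low nitrogen by 0.60 ± 0.18 (adjusted p = 0.0814), with no overlap.

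UGT72B1 (AT4G01070), known for the glucosylation of monolignols and of chlorinated phenols and anilines, had low values in 1 group. It read 2208, 1887 and 2096 in hni9 at high nitrogen. The other groups read 2389, 2655 and 2892 (WT, high), 2572, 2593 and 2743 (WT, low) and 2729, 2545 and 2847 (hni9, low), all above the first. The change was -0.35 ± 0.09 against WT at high nitrogen (adjusted p = 0.0291), and the gene rose by 0.39 ± 0.09 at low nitrogen in hni9 (adjusted p = 0.0228). At high nitrogen, omitting hni9 replicate 2 (0.0958) or 3 (0.0682) or WT replicate 2 (0.0867) or 3 (0.127) ended the former call, as did arrays centred on their medians (0.0857). The latter ended on omitting, in hni9, replicate 2 (0.0838) or 3 (0.0565) of high nitrogen or replicate 1 (0.0739) or 3 (0.0829) of low nitrogen. Its interaction was -0.39 ± 0.13 (adjusted p = 0.236).

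UGT72B3 (AT1G01420), a close relative of UGT72B1, was dim throughout. It read 141, 55.3 and 115 (WT, high), 115, 60.4 and 90.9 (WT, low), 6.33, 39 and 62.1 (hni9, high) and 40.2, 44.8 and 9.25 (hni9, low). The genotypes overlapped at high nitrogen and did not at low nitrogen. Averaged over the supplies it was lower in hni9, at -1.26 ± 0.35 (adjusted p = 0.0339), a size that was -1.79 with 1 and -0.72 with 64 added in place of 16. With 1 added the call was lost (adjusted p = 0.0503). Among the arrays of high nitrogen, omitting hni9 replicate 1 (0.0746) or WT replicate 1 (0.0848) or 3 (0.0757) ended the call. Among those of low nitrogen, omitting hni9 replicate 3 (0.0806) or WT replicate 1 (0.0822) or 3 (0.0692) did so. The sinapate enzymes UGT84A3 and UGT84A4 and the phenylpropanoid enzyme UGT73C7 passed in no comparison.

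**Figure D3:**
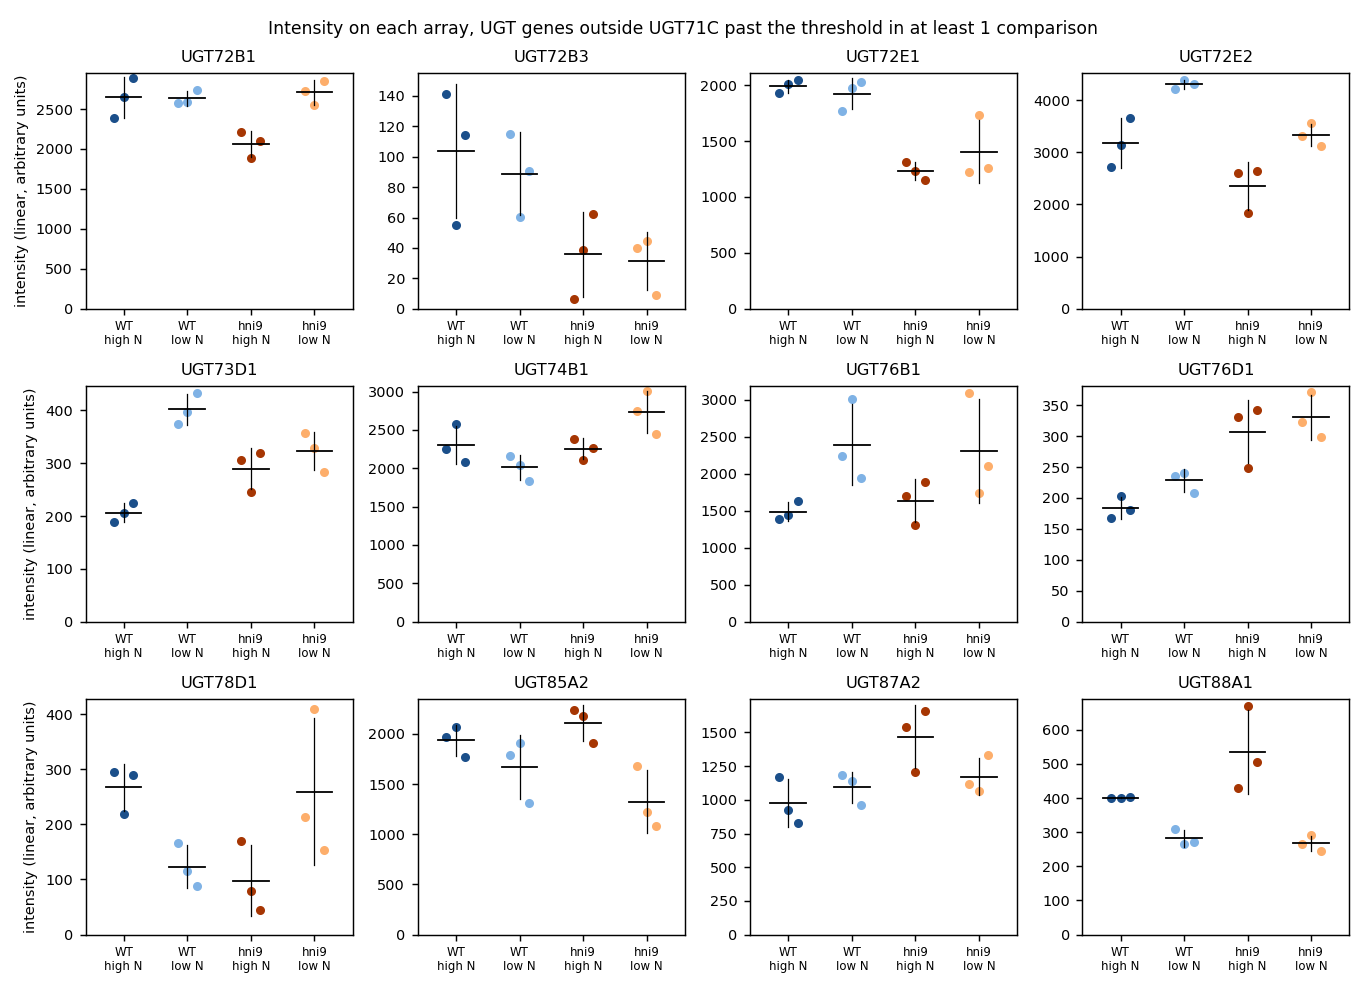
Intensity on each array of the 12 UGT genes outside UGT71C that passed in at least 1 comparison, on linear axes from 0. Points are arrays, horizontal bars group means and vertical bars 1 SD (n = 3). UGT72E1 is lower in all hni9 arrays, UGT88A1 lower in all arrays at low nitrogen, and UGT78D1 is high in WT at high and in hni9 at low nitrogen.

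Enzymes of salicylic acid, N-hydroxypipecolic acid and benzoates had 5 measured genes of 8 listed, UGT71C1 and UGT71C3 among them. UGT76D1 (AT2G26480), which glucosylates dihydroxybenzoic acids, was higher in the mutant. It read 167, 203 and 180.5 in WT and 331, 248 and 342 in hni9 at high nitrogen, and 236, 241 and 208 in WT and 322, 371 and 298 in hni9 at low nitrogen. All 6 hni9 arrays lay above all 6 WT arrays. Averaged over the supplies it was higher by 0.59 ± 0.12 (adjusted p = 0.00594), which passed whichever array was left out. At high nitrogen the change was 0.69 ± 0.17 (adjusted p = 0.0233), lost without hni9 replicate 1 or 3 (0.0881 and 0.0918) or WT replicate 1 or 3 (0.0838 and 0.0667) at that supply. At low nitrogen it was 0.50 ± 0.17 (adjusted p = 0.176).

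UGT76B1 (AT3G11340), which conjugates isoleucic, salicylic and N-hydroxypipecolic acids, was higher at low nitrogen. It read 1385, 1443 and 1635 in WT and 1707, 1313 and 1887 in hni9 at high nitrogen. At low nitrogen it read 2239, 3008 and 1944 in WT and 3098, 1737 and 2101 in hni9. Averaged over the genotypes it rose by 0.57 ± 0.14 (adjusted p = 0.0184), or 0.48 with an adjusted p of 0.0544 without WT replicate 2 at low nitrogen, the highest WT array. The WT groups did not overlap and the hni9 groups did. The interaction was 0.19 ± 0.28 (adjusted p = 0.874), so the rise is not shown to differ between the genotypes. UGT74F1 (AT2G43840), an enzyme of salicylic acid, was dim and passed in no comparison.

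UGT74B1 (AT1G24100), the S-glucosyltransferase of glucosinolate synthesis, was the single gene of the 49 that passed between the genotypes at low nitrogen. It read 2155, 2038 and 1840.1 in WT and 2744, 3009 and 2450.2 in hni9, with no overlap, a rise of 0.44 ± 0.10 (adjusted p = 0.044). At high nitrogen the values were 2254, 2574 and 2077 in WT and 2386, 2111 and 2270.1 in hni9, which overlap. The interaction was -0.46 ± 0.15 (adjusted p = 0.216), so that the genotype difference is not shown to depend on the supply. The call was lost in 8 of the 12 fits with 1 array left out. At low nitrogen these omitted hni9 replicate 1 (adjusted p = 0.105) or 2 (0.124) or WT replicate 1 (0.0744), 2 (0.121) or 3 (0.187), and at high nitrogen hni9 replicate 1 (0.0554) or 3 (0.0581) or WT replicate 1 (0.0639). After quantile normalization it had 0.0637.

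UGT78D1 (AT1G30530), the flavonol rhamnosyltransferase, had the widest range of changes among the brighter genes. It read 295, 218 and 289 in WT at high and 166, 116 and 88 at low nitrogen. In hni9 the order was the opposite, with 169, 78.5 and 44.4 at high and 214, 409 and 154 at low nitrogen. The WT groups did not overlap, and the hni9 groups overlapped through replicate 1 at high and replicate 3 at low nitrogen. The gene was lower in hni9 at high nitrogen, at -1.46 ± 0.39 (adjusted p = 0.0359). The nitrogen difference was -1.05 ± 0.39 in WT (adjusted p = 0.16) and 1.32 ± 0.39 in hni9 (adjusted p = 0.0754), and the interaction of -2.38 ± 0.56 missed (adjusted p = 0.0789). The interaction passed when only probe sets above the dimmest 40% were tested (0.029). Without hni9 replicate 1 at high nitrogen it was -2.81 and passed (0.0233). That array was the highest of its group, so leaving it out could only enlarge the interaction and is no further support. The genotype call ended on omitting hni9 replicate 2 (0.0838) or 3 (0.139) or WT replicate 1 (0.111), 2 (0.0661) or 3 (0.109) of the same supply, or WT replicate 2 (0.0514) of the other. Of the other 3 flavonoid members, UGT78D3, UGT79B1 and UGT79B6, 0 passed, and 2 of those read under 16 on at least 6 arrays.

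UGT73D1, UGT85A2, UGT87A2 and UGT88A1 belong to other subfamilies. UGT73D1 (AT3G53150) read 189, 206 and 224 in WT at high and 375, 398 and 434 at low nitrogen, a 1.95-fold ratio of means. It rose by 0.91 ± 0.15 (adjusted p = 0.00228), the largest rise in WT among the genes that passed, and passed whichever array was left out. In hni9 it read 305, 245 and 319 at high and 357, 329 and 284 at low nitrogen, which overlap, a difference of 0.15 ± 0.15 (adjusted p = 0.708). Its interaction was 0.76 ± 0.22 (adjusted p = 0.159). UGT73C7 (AT3G53160), its direct neighbour, read 40.5 to 62.5 in the 6 WT arrays and 57.5 to 111 in the 6 of hni9, a difference of 0.52 ± 0.20 averaged over the supplies (adjusted p = 0.141).

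UGT88A1 (AT3G16520) was lower at low nitrogen. It read 400.4, 399 and 404 in WT and 429.7, 669 and 505 in hni9 at high nitrogen, and 309.7, 264 and 272 in WT and 266, 291 and 245 in hni9 at low nitrogen. All 6 arrays at low nitrogen lay below all 6 at high nitrogen, as they did, in either direction, for 3.58% of all probe sets. UGT88A1 and UGT71C1 were the 2 of 49 genes with that separation. Averaged over the genotypes the change of UGT88A1 was -0.71 ± 0.11 (adjusted p = 0.000629), and in hni9 alone -0.94 ± 0.16 (adjusted p = 0.00232). Both passed whichever array was left out. In WT alone the change was -0.49 ± 0.16 (adjusted p = 0.0885). The interaction was 0.45 ± 0.22 (adjusted p = 0.486), so the fall is not shown to differ between the genotypes.

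UGT85A2 (AT1G22360) fell at low nitrogen in hni9, from 2235, 2182 and 1905 to 1677, 1220.5 and 1080.2, with a change of -0.68 ± 0.16 (adjusted p = 0.0208). In WT it read 1969, 2072 and 1766 at high and 1790.4, 1913 and 1308 at low nitrogen, which overlap, a difference of -0.23 ± 0.16 (adjusted p = 0.528). The interaction was 0.46 ± 0.22 (adjusted p = 0.488), so the fall is not shown to differ between the genotypes. The hni9 call ended on omitting replicate 1 (0.0795) or 2 (0.0602) of the mutant's high nitrogen group or replicate 2 (0.0596) or 3 (0.0917) of its low nitrogen group. Averaged over the genotypes the change was -0.45 ± 0.11 (adjusted p = 0.0181), which passed whichever array was left out. Its neighbours UGT85A3, UGT85A5 and UGT85A7 are among the dimmest 40% and passed in no comparison. UGT85A3 (AT1G22380) read 138, 113 and 97 in WT at high and 63.3, 57.1 and 15.7 at low nitrogen, and its interaction of -1.96 ± 0.60 had an adjusted p of 0.194.

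UGT87A2 (AT2G30140), known from the control of flowering time and from abiotic stress, was higher in hni9 at high nitrogen. It read 1173, 925 and 826 in WT and 1542, 1206 and 1658 in hni9, with no overlap, a rise of 0.59 ± 0.15 (adjusted p = 0.0239). The call was lost without hni9 replicate 1 or 3 (0.0858 and 0.0998) or WT replicate 2 or 3 (0.0844 and 0.107) at high nitrogen. At low nitrogen it read 1181, 1139 and 964 in WT and 1118, 1068 and 1331 in hni9, which overlap. Its interaction was 0.49 ± 0.21 (adjusted p = 0.396), so that the genotype difference is not shown to depend on the supply. Averaged over the supplies the difference of 0.34 ± 0.10 just missed (adjusted p = 0.052). The 8 calls between the genotypes at high nitrogen and the 3 calls of WT between the supplies all use the WT arrays at high nitrogen. The calls of the interaction and of both averages use those arrays too, together with the other groups. GAPDH ratios of the WT arrays at high nitrogen were above those of every other array. The part of that ratio in all these calls was not tested.

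The lists of hormone enzymes other than those of salicylic acid held no call. Of the auxin list 3 genes of 7 were measured. UGT74D1 (AT2G31750), an enzyme of auxin conjugation, was bright and read 2160.4, 1874 and 2151 (WT, high), 2057, 2145 and 2038 (WT, low), 2370.3, 1917 and 2004 (hni9, high) and 2519, 1823 and 2555 (hni9, low), with overlap throughout. UGT84B2 (AT2G23250) had the lowest adjusted p of that list, 0.339 for -0.67 ± 0.34 in WT, at intensities of 5.33 to 33.6. Of the cytokinin list 3 of 5 were measured, and UGT76C2 (AT5G05860), which N-glucosylates cytokinins, came closest with -0.26 ± 0.10 between the genotypes averaged over the supplies (adjusted p = 0.136). It read 467, 441 and 530.3 in WT and 350.4, 434 and 486 in hni9 at high nitrogen. Of the abscisic acid list 4 of 6 were measured, with UGT71C5 as described. Of the jasmonate list, the UGT76E subfamily, 4 of 10 were measured, all dim, and UGT76E11 had -0.57 ± 0.27 between the supplies (adjusted p = 0.239).

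The stress-responsive UGT73B genes had 3 measured of 5. UGT73B4 (AT2G15490) read 985, 662 and 942 in WT at high and 1448, 1832 and 1561 at low nitrogen, with no overlap, and 1437, 511 and 1173 in hni9 at low nitrogen. The difference in WT was 0.91 ± 0.29 (adjusted p = 0.0915). Without hni9 replicate 2 at low nitrogen, the array that read 511, the spread shrank and the WT difference passed (0.0064). UGT73B5 (AT2G15480), its direct neighbour, read 727, 705 and 751 in WT at high and 926, 949.9 and 927 at low nitrogen. That difference of 0.35 ± 0.13 (adjusted p = 0.155) passed without the same array (0.0432). Leaving out that array left both WT differences as they were, so neither pass is further support. UGT73B1 (AT4G34138) read 713, 364 and 471 in hni9 at low nitrogen, so that this array was the lowest of its group for all 3 genes. It was the lowest of its group for 12 of the 26 brighter UGT genes and the highest for 10. Of the UGT73C genes 3 of 7 were measured, with no call, and of the brassinosteroid list 0 of 2. The sterol glucosyltransferases UGT80A2 and UGT80B1 passed in no comparison, and UGT80A2 (AT3G07020) read 411 to 726 over the 12 arrays.

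Nitrogen differences in the 2 genotypes share no array and were set side by side over the 26 brighter genes. Their Pearson correlation was 0.0441, and 0.357 without UGT78D1, so that it rests on that gene. Over all probe sets not among the dimmest 40% it was 0.512. The sign was the same in 15 of the 26. The genotype differences at the 2 supplies had a correlation of -0.25, and 0.0824 without UGT78D1, against 0.451, with the same sign in 10 of the 26. These are descriptions across genes, some of which are tandem copies and all of which share the same arrays. Of the 49 genes, 19 in WT and 13 in hni9 had groups that did not overlap between the supplies, 38.8% and 26.5%, against 24.9% and 19.6% of all probe sets. Between the genotypes it was 17 at high and 9 at low nitrogen, 34.7% and 18.4%, against 25.8% and 18.3%.

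**Figure D4:**
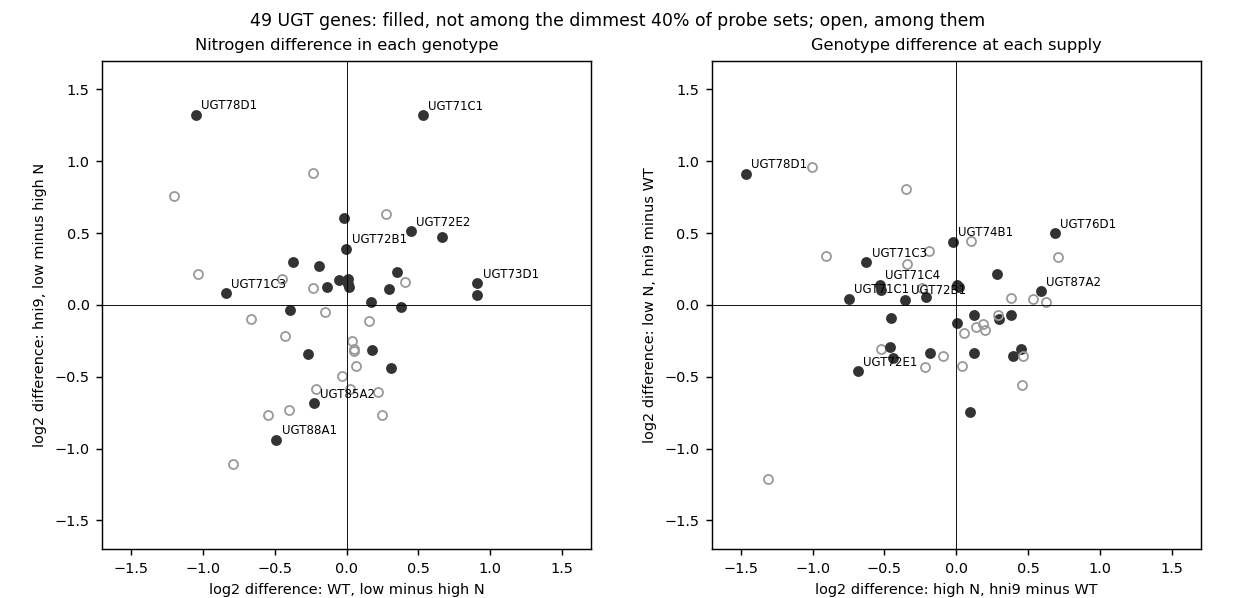
Changes of the 49 UGT genes, as differences of log2(intensity + 16). The left panel sets low minus high nitrogen in hni9 (vertical) against the same in WT (horizontal), and the right panel sets hni9 minus WT at low nitrogen (vertical) against high nitrogen (horizontal). Filled points are the 26 brighter genes, of which those past the test on either axis are named, together with UGT78D1, which lies in the corner of opposite signs in both panels.

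Genes of steps that neighbour glycosylation were counted from lists chosen by name. Of 22 beta-glucosidases, which release sugars from conjugates, 3 were lower and 0 higher in hni9 averaged over the supplies, against 5.01% and 4.4% of all probe sets. Among them BGLU44 had -1.10 ± 0.24 (adjusted p = 0.00908) and BGLU46, a beta-glucosidase of monolignol glucosides, -0.40 ± 0.10 (adjusted p = 0.0203). Averaged over the genotypes 2 were lower and 0 higher at low nitrogen, against 4.34% and 4.61%, BGLU45 at -0.95 ± 0.19 (adjusted p = 0.00518) and BGLU46 at -0.62 ± 0.10 (adjusted p = 0.00078). Of 13 glutathione transferases, which join foreign compounds to glutathione, 4 were higher and 2 lower at low nitrogen in WT, against 2.84% and 2.9% of all probe sets, with GSTU25 at 1.32 ± 0.25 and GSTU22 at 1.06 ± 0.18. The 2 lower in WT were GSTU26 at -0.90 ± 0.18 (adjusted p = 0.00656) and GSTU27 at -0.53 ± 0.11 (adjusted p = 0.00723). In hni9 1 was higher and 0 lower, against 2.98% and 2.12%, GSTU22 at 1.06 ± 0.18. GSTU21 had 1.36 ± 0.31 in WT (adjusted p = 0.0165) and 1.05 ± 0.31 in hni9 (adjusted p = 0.0678), and GSTU20 0.90 ± 0.24 in WT (adjusted p = 0.0375) and 0.75 ± 0.24 in hni9 (adjusted p = 0.0952). The interactions of GSTU21 and GSTU20 had adjusted p-values of 0.871 and 0.927, and that of GSTU25 had 0.268, so the responses of these genes are not shown to differ between the genotypes. The list of genes that inactivate hormones by other chemistry had 5 measured, and all 5 were GH3 genes. Of these, 1 was higher and 1 lower at low nitrogen in hni9, against 2.98% and 2.12%. They were GH3.17 at 0.45 ± 0.12 (adjusted p = 0.035) and the auxin-conjugating GH3.3 at -2.84 ± 0.38 (adjusted p = 0.000373).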

How the data were processed

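Root RNA of 12 samples was measured on Affymetrix arrays. The authors deposited 1 intensity per probe set on a linear scale. From the values themselves, each array had been scaled to a mean of 500 without its highest and lowest 2%, and how probes were summarised is not stated in the labels. Groups and replicate numbers came from the titles, and the 64 control probe sets were left out. In limma 3.58.1 (R 4.3.3), log2(intensity + 16) of all 12 arrays was modelled by the 4 group means, and variances were moderated along the intensity trend. Benjamini-Hochberg adjustment ran over 22746 probe sets. The fit was tested on simulated data. Genes were named from the platform annotation and the RefSeq gene table of TAIR10.1, used for names and neighbours. Every UGT gene past the threshold was named, and from each role list with none the one with the smallest adjusted p, and other genes described were chosen after their values were seen. The genes and lists were chosen with earlier results of these data known. Alternatives were 1 or 64 added, centring, quantile normalization, no trend, a replicate block, replicates 1 and 2 alone, each array left out, the dimmest 40% left out and averaging over probe sets of 1 gene. Sequences and the planned motif searches were not used here.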

Additional observations from a re-analysis of the deposited data

Results flagged for a closer look

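UGT71C1 is listed because the hni9 change differed between the supplies by the interaction term of limma, at -0.79 ± 0.14 (adjusted p = 0.0161). The change was -0.75 at high and 0.04 at low nitrogen. Over the 21 alternatives the interaction lay between -0.86 and -0.69, with adjusted p-values of 0.00992 to 0.323. Groups of 3 arrays are too small for a search for single deviating arrays.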

How the results depend on the processing

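Of the 29 calls, 15 passed whichever array was left out and 9 passed under all 21 alternatives, and 0 changed sign. Those 9 were 3 of UGT71C1 between 2 groups and 1 averaged over the genotypes, 2 of UGT73D1, and 1 average each of UGT72E1 (genotype), UGT72E2 (nitrogen) and UGT88A1 (nitrogen). Not every alternative could change the size of a call. Each gene had 1 probe set, so averaging over probe sets left its value as it was. Between 2 groups, leaving out an array of the other groups also left the size as it was. Replicates 1 and 2 alone lost 19 calls, and a constant prior variance in place of the trend lost 14. With replicates 1 and 2 alone the numbers of UGT genes called were 1 in the nitrogen response of hni9, 1 between genotypes at high nitrogen, 0 at low nitrogen, 0 for the interaction and 1 for the genotype average. Without the trend they were 2, 3, 0, 0 and 3. Leaving out the dimmest 40% changed both the number of probe sets adjusted over and the fitted trend of the variances. The nitrogen response of WT then had 7, the genotype difference at low nitrogen 2 and the interaction 2. Quantile normalization gave 0 between genotypes at low nitrogen. With single arrays left out the counts ranged from 2 to 6 (nitrogen in WT), 2 to 5 (nitrogen in hni9), 2 to 8 (genotype at high nitrogen), 0 to 1 (genotype at low nitrogen), 0 to 2 (interaction), 5 to 8 (nitrogen average) and 4 to 6 (genotype average). The causes of these shifts were not tested.

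Samples of different groups with the same replicate number had deviations that correlated by 0.0216 to 0.15, over 0.1 in 6 of 18 pairs, 5 of them among the arrays of replicate 3. Since not every pair was over 0.1 and no label ties the numbers to a shared batch, they were not taken to pair the arrays. The sample records of replicate 3 have a separate run of record numbers from those of replicates 1 and 2, for a reason the labels do not state. For 11 of 12 arrays the best partner in another group had its own number, a hint from the data and not from the design. With the replicate block the genotype difference at low nitrogen had 2 calls and the interaction 2, and 1 call was lost, that of UGT71C3 between genotypes at high nitrogen (0.0501). The block added 5 calls: UGT78D1 for the interaction (0.0407) and in hni9 (0.0422), UGT72E1 at low nitrogen (0.0465), UGT73B4 in WT (0.034) and UGT87A2 for the genotype average (0.0422). Over all probe sets the counts without the trend were 795 of 1305 (nitrogen in WT), 647 of 1160 (nitrogen in hni9), 929 of 1744 (genotype at high nitrogen), 156 of 469 (at low nitrogen) and 21 of 160 (interaction). Centring the arrays turned the split at high nitrogen from 759 higher and 985 lower in hni9 to 897 and 848. In WT it moved the nitrogen split from 646 higher and 659 lower to 765 and 517.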
